A study of Homo sapiens with 28 samples.

Results

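The 38 genes described here are the members of the 4 human HOX clusters, taken as every row of the count table whose symbol is HOXA, HOXB, HOXC or HOXD followed by a number, with 1 gene of the family not analysed here. They make up 38 of 61815 genes in the table, with 11 in HOXA on chromosome 7, 9 in HOXB on chromosome 17, 9 in HOXC on chromosome 12 and 9 in HOXD on chromosome 2. They were measured by RNA-Seq of total RNA from LNCaP cells, a human prostate cancer line that responds to androgen. Before treatment, every culture spent 72 h in charcoal-stripped serum to remove steroid hormones. In the 24 h experiment, cells received vehicle (0.1% DMSO), Senexin B at 1 µM, the synthetic androgen R1881 at 0.1 nM, or R1881 with Senexin B, with 3 libraries per group. In the 72 h experiment, they received vehicle (0.1% DMSO), SNX631 at 500 nM, R1881 at 1 nM, or R1881 with SNX631, with 4 libraries per group. Senexin B and SNX631 inhibit CDK8 and CDK19, the paired Mediator kinases. The experiments differ at once in time, androgen dose and inhibitor, so these cannot be told apart. The dose of Senexin B is that of the sample labels, and the text of the study gives a higher one for this experiment. All groups come from 1 cell line. The study describes its replicates as biological, and p values measure the spread between these libraries.

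HOX genes encode homeodomain transcription factors that give cells their position along the body axis. Within a cluster, genes are numbered from the 3′ end, with the anterior genes at low numbers and the posterior genes at high numbers, and the order along the chromosome follows the order of expression along the body. The posterior members, paralogue groups 9 to 13, pattern the hindgut, the urogenital tract and the limbs, and adult epithelia, the prostate among them, keep a part of this code. HOX proteins bind DNA together with TALE homeodomain partners of the PBX and MEIS families.

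Total counts ranged from 9846481 to 33809270 per library, and the highest belonged to 1 vehicle library at 24 h (replicate 3), with up to 15248316 in the rest. Levels are given as CPM, counts relative to the TMM-scaled library size. All 6 luminal prostate epithelium markers, among them KRT8, KRT18, FOLH1, TMPRSS2 and SLC45A3, were present at 1 CPM or more in every group. The 3 basal, 2 endothelial and 1 leukocyte markers did not reach 1 CPM in any group. Of 6 fibroblast markers, the sum was 28.2 to 31.3 CPM with vehicle and 16.4 to 18.3 CPM with R1881 at 24 h, and 34.2 to 38 CPM and 18.9 to 26.1 CPM at 72 h. COL1A1, COL3A1 and PDGFRB reached a group mean of 1 CPM. LUM stayed under 1 CPM, with 0.529 ± 0.199 CPM with vehicle (SD, n = 3) and 0 CPM in each library with R1881 at 24 h, and 0.637 ± 0.291 and 0.048 ± 0.0558 CPM (n = 4) at 72 h. COL1A2 and DCN stayed at or below 0.173 CPM and 0.079 CPM. The part of these genes in the HOX differences was not tested.

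The sequences available for the members are promoter windows of RefSeq (GRCh38.p14), from 250 bases before to 50 bases after a start site, written 5′ to 3′ on the strand of the gene. HOX members had 26 distinct windows, of which those of HOXA10, HOXA11 and the start shared by HOXC4 and HOXC5 are shown. RefSeq gives HOXC5 this start, whereas the annotation used for gene positions (GENCODE 29) places HOXC5 at chr12:54032853-54035358. HOXA10, the most abundant HOXA gene, and HOXA11 were called lower in all 4 androgen comparisons. HOXC5 was called lower in 3 of them. HOXC4 was called in none, with a smaller fall in each. Capitals mark AGAACA, the half-site of the androgen response element, searched on both strands.
HOXA10, chr7:27174271-27174570, minus strand: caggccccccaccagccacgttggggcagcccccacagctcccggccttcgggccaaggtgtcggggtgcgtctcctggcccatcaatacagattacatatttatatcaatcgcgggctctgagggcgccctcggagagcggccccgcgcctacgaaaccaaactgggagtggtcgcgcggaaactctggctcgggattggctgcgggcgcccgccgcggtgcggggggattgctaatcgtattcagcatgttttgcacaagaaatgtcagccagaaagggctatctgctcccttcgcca
HOXA10, chr7:27179812-27180111, minus strand: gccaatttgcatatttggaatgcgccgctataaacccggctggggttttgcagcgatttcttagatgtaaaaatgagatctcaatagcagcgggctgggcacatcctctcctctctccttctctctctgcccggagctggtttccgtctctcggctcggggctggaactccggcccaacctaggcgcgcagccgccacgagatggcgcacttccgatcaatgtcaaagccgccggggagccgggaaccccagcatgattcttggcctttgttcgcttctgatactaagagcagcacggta
HOXA11, chr7:27185183-27185482, minus strand: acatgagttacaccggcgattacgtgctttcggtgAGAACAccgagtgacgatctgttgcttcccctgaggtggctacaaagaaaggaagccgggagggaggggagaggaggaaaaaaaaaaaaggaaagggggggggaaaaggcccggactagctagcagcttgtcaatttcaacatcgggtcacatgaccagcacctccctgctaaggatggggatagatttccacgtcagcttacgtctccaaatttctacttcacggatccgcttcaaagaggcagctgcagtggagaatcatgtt
HOXC4 and HOXC5, chr12:54016638-54016937, plus strand: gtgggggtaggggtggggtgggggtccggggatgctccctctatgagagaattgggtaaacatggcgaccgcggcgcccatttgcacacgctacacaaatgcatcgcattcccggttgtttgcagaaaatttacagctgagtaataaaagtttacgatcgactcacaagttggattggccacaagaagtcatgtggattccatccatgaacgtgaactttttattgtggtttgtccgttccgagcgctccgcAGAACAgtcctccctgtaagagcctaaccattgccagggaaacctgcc

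With a window shared by genes counted once, the half-site was present in 4 of 26 HOX windows (of HOXA3, HOXA9, HOXA11, and HOXC4 with HOXC5), and in 14.8% of 34943 windows of all genes. The full androgen response element is a pair of half-sites in inverted orientation with 3 bases between them. Searched with no mismatch allowed, it was in 0 HOX windows and in 1 of all windows. So rare an exact match cannot tell HOX windows from others, and elements with mismatches were not searched. TGATTNAT, the composite site of PBX and HOX proteins, was in the windows of HOXA2 and HOXD11, and in 2.82% of all windows. Both HOXA10 windows lacked all of these letters. The median GC content was 58% in the HOX windows and 58.7% in all windows. HOXC9, HOXC10, HOXC12, HOXC13 and HOXB9 had no entry.

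Of the 38 genes, 14 reached a group mean of 1 CPM in at least 1 of the 8 groups, and the same 14 genes passed the filter on low counts in both experiments. Among them were HOXA5, HOXA6, HOXA10 and HOXA11, HOXB6 and HOXB9, and HOXC4, HOXC5, HOXC6, HOXC9, HOXC10, HOXC12 and HOXC13. By position, they included 6 of 15 central genes (paralogue groups 4 to 8) and 7 of 15 posterior genes (groups 9 to 13). A further 16 genes had counts but stayed under 1 CPM, and 8 genes (HOXB1, HOXB2, HOXB4, HOXD3, HOXD4, HOXD9, HOXD11 and HOXD12) had 0 counts after rounding in all 28 libraries. A count of 0 over all libraries allows a level of up to 0.00824 CPM, from 3 counts of their summed total and for counting error only.

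Among the 38 genes, HOXC was the dominant cluster in every library. It held from 61.4 to 73.9% of their summed CPM, against 23.2 to 34.2% for HOXA and 2.26 to 7.76% for HOXB. The gene of the family that was not analysed is in none of these sums, so whole clusters are not ranked. No HOXD gene reached 1 CPM. The 9 HOXD genes gathered 22 counts over 28 libraries, against 24243 for HOXC, 9833 for HOXA and 1140 for HOXB.

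**Figure D1:**
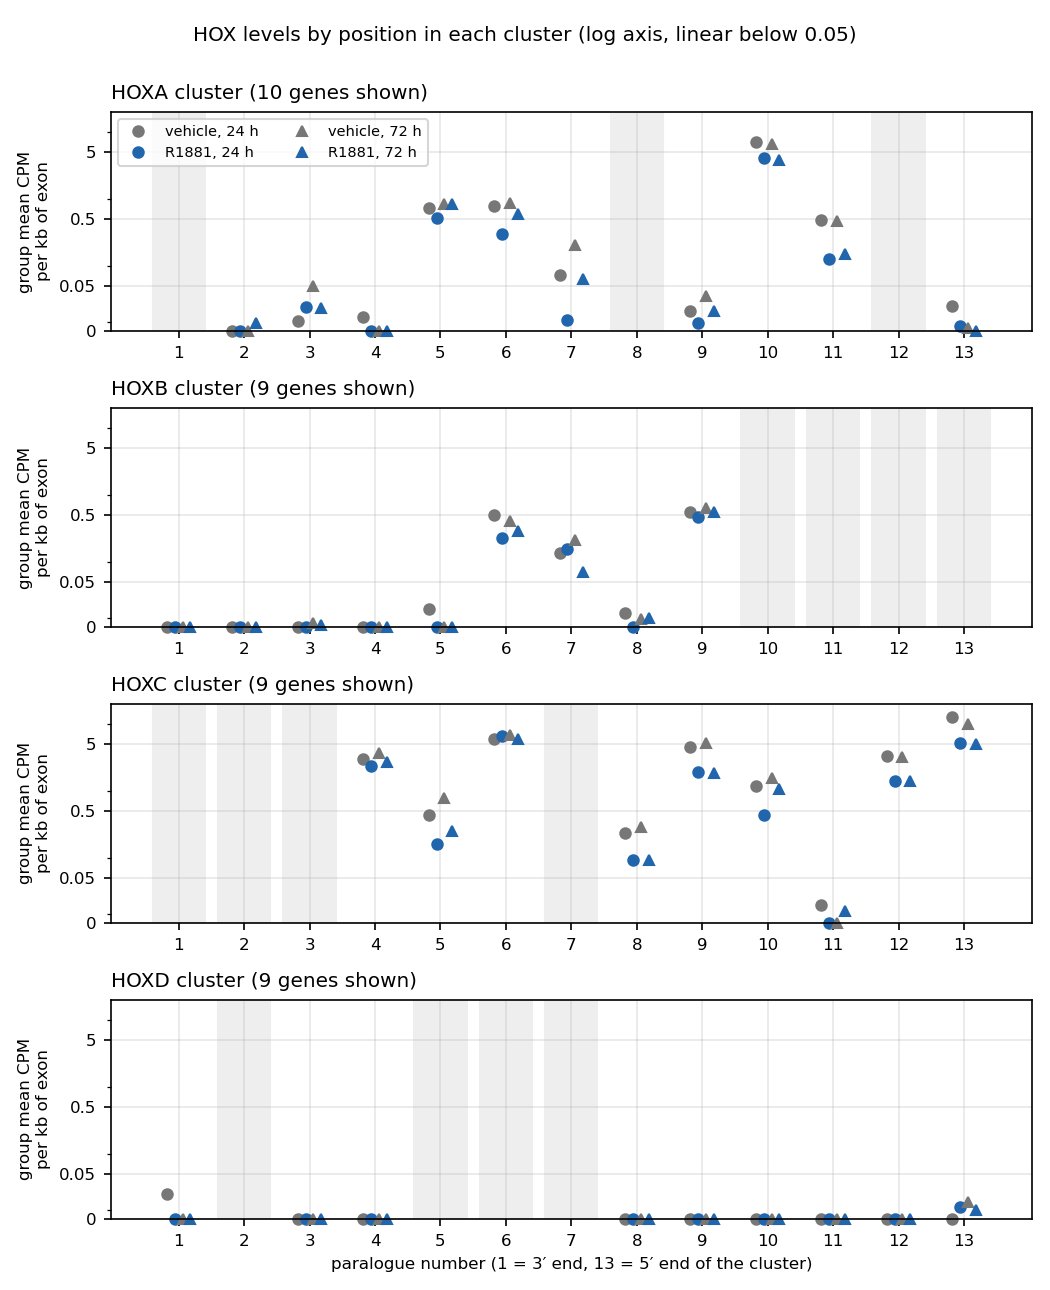
Group mean CPM per kb of exon (log axis, linear below 0.05) against paralogue number for the 4 clusters, in vehicle (grey) and R1881 (blue) libraries at 24 h (circles, n = 3) and 72 h (triangles, n = 4), with grey bands where no gene is shown. HOXC13, HOXA10, HOXC6 and HOXC9 stand highest with vehicle, the blue symbols of HOXC9, HOXC10, HOXC12 and HOXC13 sit below the grey ones of the same experiment, and HOXD genes lie at or near 0.

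Levels between the 38 genes were compared per kb of exon (GENCODE 29). In vehicle cells at 24 h, HOXC13, a regulator of hair and nail keratins, was highest among them at 12.5 CPM per kb. HOXA10, which patterns the female reproductive tract, followed at 7.03, then HOXC6 at 6.04, HOXC9 at 4.59, HOXC12 at 3.35, HOXC4 at 3.03 and HOXC10 at 1.2 CPM per kb. The ranges of HOXC12 and HOXC4 overlapped, and so did those of neighbours in the order from HOXA6 at 0.797 through HOXA5, HOXB9, HOXB6 and HOXA11 to HOXC5 at 0.443 CPM per kb. Vehicle cells at 72 h had HOXC13 at 9.9, HOXC6 at 6.78 and HOXA10 at 6.52 CPM per kb, with overlapping ranges for HOXC6 and HOXA10. With R1881, HOXC6 was highest of the 38 genes in both experiments, at 6.54 CPM per kb at 24 h and 6 at 72 h. HOXC13 stood at 5.23 and 5.06.

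The first comparison asked how the clusters respond to androgen, with each sum taken over the 38 genes only. The summed HOXC level was 82.8 ± 3.54 CPM (SD, n = 3) with vehicle and 51.6 ± 2.79 with R1881 at 24 h, and 83 ± 2.48 (n = 4) and 51.8 ± 1.84 CPM at 72 h. The HOXA sum was 30.9 ± 0.79 and 17.8 ± 1.14 CPM at 24 h, and 29.9 ± 1.15 and 17.7 ± 0.855 CPM at 72 h. Most of the HOXA sum was HOXA10, with means of 26 and 15.4 CPM at 24 h, and 24.2 and 14.1 CPM at 72 h. For both clusters the vehicle and R1881 libraries did not overlap in either experiment. The HOXB sum was 3.05 ± 0.436 and 2.07 ± 0.292 CPM at 24 h, and 3.11 ± 0.231 and 2.36 ± 0.424 CPM at 72 h. In bulk RNA, fewer cells that express a gene and less RNA per cell cannot be told apart.

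A gene was called at a false discovery rate (FDR) under 0.01 with a fold change over 1.5, from edgeR's quasi-likelihood test with Benjamini-Hochberg adjustment over all genes tested. At 24 h, R1881 lowered 9 of the 14 tested HOX genes (HOXA6, HOXA10, HOXA11, HOXB6, HOXC5, HOXC9, HOXC10, HOXC12 and HOXC13) and the other 5 were not called, beside 9.19% of 15948 genes called lower. With Senexin B present, 6 were lower (HOXA10, HOXA11, HOXC9, HOXC10, HOXC12 and HOXC13), beside 8.9% of all genes. At 72 h, 6 were lower (HOXA10, HOXA11, HOXC5, HOXC9, HOXC12 and HOXC13), beside 10.1% of 16074 genes. With SNX631 present, 8 were lower, those 6 and HOXC10 among them, beside 12% of all genes. The median log2 fold change of the 14 genes was -1.18, -1.01, -0.67 and -1.06 in these comparisons, beside -0.016, -0.011, -0.014 and -0.014 over all genes. The 14 genes are only those abundant enough in some group to be tested. For HOXA6, HOXA11, HOXB6 and HOXC5, a group mean of 1 CPM was reached only in groups without R1881. Where a low gene passes the filter through such groups, a fall with R1881 is favoured. The counts and medians include these genes. With FDR under 0.05 and no fold limit, 10, 9, 10 and 12 of them were called in the same order, beside 58.4%, 57.4%, 62.1% and 65.7% of all genes in either direction, so that a large share of all genes passed that looser limit.

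HOXA10, HOXA11, HOXC9, HOXC12 and HOXC13 were lower in all 4 androgen comparisons, and all of them are posterior genes. Of the 7 posterior genes tested, 6, 6, 5 and 6 were lower in the 4 comparisons, and of the 6 central genes 3, 0, 1 and 1 were lower. Of all genes, 9.19%, 8.9%, 10.1% and 12% were lower. The central genes HOXA5, HOXA6, HOXB6 and HOXC5 had group means of at most 1.53 CPM, as had the posterior gene HOXA11. The central gene HOXC4 passed the FDR limit but not the fold limit in all 4 comparisons. A difference between positions was not tested.

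**Figure D2:**
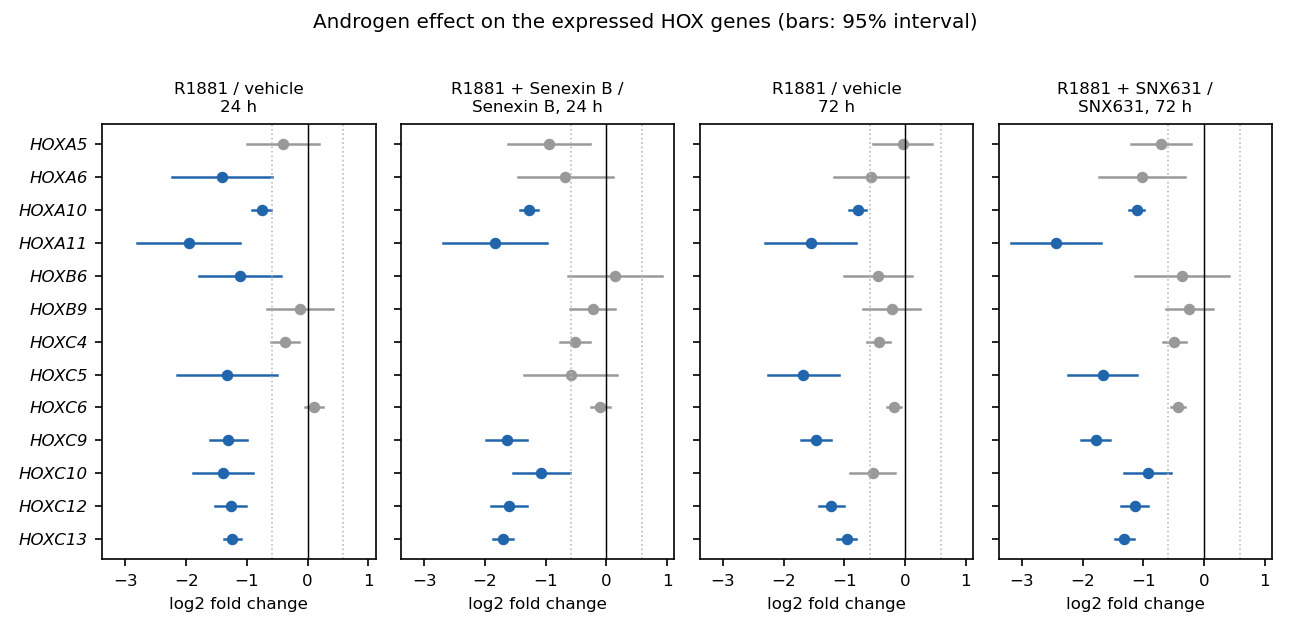
Log2 fold change with its 95% interval for 13 tested HOX genes in the 4 androgen comparisons, with blue for genes called lower, grey for genes not called and dotted lines at a fold change of 1.5. HOXA10, HOXA11, HOXC9, HOXC12 and HOXC13 are blue in all 4 panels, while HOXB9 and HOXC6 lie nearer to 0.

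HOXC13, at the 5′ end of its cluster (chr12:53938765-53946544, GRCh38, plus strand), had 31.9, 29.4 and 29.2 CPM in the vehicle libraries at 24 h and 13, 13.4 and 11.6 CPM with R1881. With Senexin B it had 29.6, 29.3 and 30.4 CPM, and with both agents 9.62, 8.99 and 8.93 CPM. At 72 h the values were 26.5, 22.2, 25.1 and 22 CPM with vehicle, 11.2, 13.5, 11.3 and 13.1 CPM with R1881, 24.2, 22.6, 20.9 and 22.1 CPM with SNX631 and 9.2, 7.76, 9.89 and 9.7 CPM with both. All libraries with R1881 were below all libraries without it, and those with R1881 and inhibitor were below those with R1881 alone in both experiments. The androgen effect on the log2 scale was -1.24 ± 0.074 (FDR = 8.41e-16) at 24 h, -1.70 ± 0.082 (FDR = 4.1e-18) with Senexin B, -0.96 ± 0.08 (FDR = 3.75e-13) at 72 h and -1.31 ± 0.083 (FDR = 9.77e-17) with SNX631 (values after ± are SE).

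HOXC12, its neighbour (chr12:53954834-53958956), had 10.3, 11.9 and 11.2 CPM with vehicle and 4.26, 4.64 and 5.07 CPM with R1881 at 24 h, and 10.9, 9.33 and 10.6 CPM with Senexin B and 2.75, 2.71 and 4.58 CPM with both. At 72 h it had 10.6, 10.9, 10.5 and 11 CPM with vehicle, 4.25, 4.99, 4.68 and 4.58 CPM with R1881, 8.8, 7.91, 8.46 and 8.2 CPM with SNX631 and 2.7, 4.2, 3.98 and 4.23 CPM with both. Again no library with R1881 reached the level of a library without it. The androgen effect was -1.27 ± 0.13 (FDR = 7.9e-10), -1.60 ± 0.15 (FDR = 8.6e-11), -1.22 ± 0.11 (FDR = 1.45e-12) and -1.14 ± 0.11 (FDR = 2.16e-11), in the same order.

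**Figure D3:**
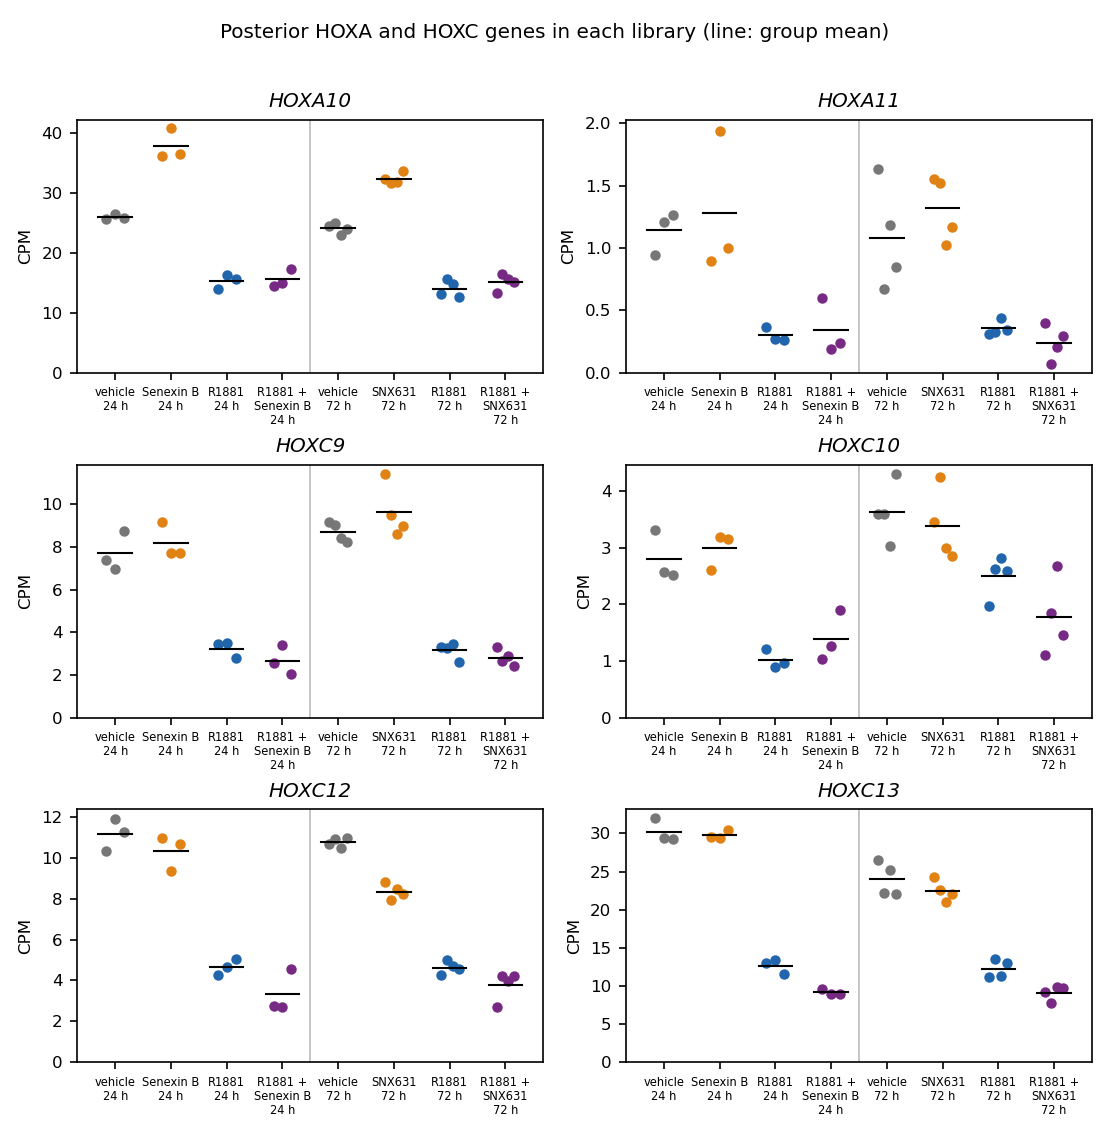
CPM of 6 posterior HOX genes in each of the 28 libraries (points), by group, with the group mean as a line and 24 h groups left of 72 h groups. In HOXC9, HOXC12 and HOXC13 the libraries with R1881 lie below all libraries without it, and HOXA10 is highest in the Senexin B and SNX631 libraries without R1881.

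HOXC9 (chr12:53994895-54003337, plus strand) is a posterior gene further along the cluster. Its values at 24 h were 7.39, 6.99 and 8.75 CPM with vehicle, 9.16, 7.73 and 7.71 with Senexin B, 3.43, 3.48 and 2.8 with R1881 and 2.58, 3.38 and 2.06 with both. At 72 h they were 9.18, 9.01, 8.44 and 8.22 CPM with vehicle, 11.4, 9.51, 8.62 and 8.96 with SNX631, 3.32, 3.27, 3.45 and 2.59 with R1881 and 3.33, 2.63, 2.88 and 2.41 with both. The androgen effect was -1.31 ± 0.16 (FDR = 1.16e-08) at 24 h, -1.64 ± 0.17 (FDR = 6.03e-10) with Senexin B, -1.47 ± 0.13 (FDR = 9.95e-13) at 72 h and -1.78 ± 0.12 (FDR = 9.16e-16) with SNX631, and the groups with and without R1881 did not overlap.

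HOXC10 (chr12:53985065-53990279) is the gene whose androgen effect was called in only 3 of 4 comparisons among the posterior HOXC genes. Its levels at 24 h were 3.32, 2.57 and 2.53 CPM with vehicle, 2.61, 3.19 and 3.16 with Senexin B, 1.21, 0.893 and 0.962 with R1881 and 1.03, 1.26 and 1.9 with both. At 72 h they were 3.6, 3.6, 3.04 and 4.3 CPM with vehicle, 3.45, 4.26, 3 and 2.85 with SNX631, 1.97, 2.62, 2.83 and 2.59 with R1881 and 1.11, 1.85, 2.68 and 1.46 with both. The R1881 libraries lay below the vehicle libraries in both experiments, with an effect of -1.40 ± 0.25 (FDR = 1.65e-05) at 24 h and -0.54 ± 0.19 (FDR = 0.0134) at 72 h on the log2 scale, and the second value passed neither limit. The effect with inhibitor was -1.07 ± 0.24 (FDR = 0.000286) with Senexin B and -0.93 ± 0.20 (FDR = 8.66e-05) with SNX631. The difference between the androgen effects at 72 h and 24 h was 0.87 ± 0.33 (FDR = 0.0806), which was not called. Of its values, 67.9% carried a fraction, and 7.12% of its exon bases lie in exons of AC012531.2 on the same strand.

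HOXA10 (chr7:27170591-27180261, minus strand) was the most abundant HOXA gene, with 25.7, 26.5 and 25.9 CPM with vehicle and 14.1, 16.4 and 15.7 CPM with R1881 at 24 h. Senexin B gave 36.2, 40.9 and 36.5 CPM without androgen and 14.4, 15.1 and 17.3 CPM with it. At 72 h it had 24.5, 25.1, 23 and 24.1 CPM with vehicle, 13.3, 15.6, 14.8 and 12.6 with R1881, 32.5, 31.8, 31.9 and 33.6 with SNX631 and 13.3, 16.5, 15.7 and 15.1 with both. With either inhibitor alone every library was above every vehicle library, whereas with R1881 the libraries with and without inhibitor overlapped. The androgen effect was -0.76 ± 0.078 (FDR = 5.21e-10) and -0.78 ± 0.071 (FDR = 3.46e-12) without inhibitor, and -1.27 ± 0.076 (FDR = 8.74e-16) and -1.10 ± 0.063 (FDR = 3.94e-18) with it. Of the HOXA10 values, 35.7% carried a fraction, and 9.93% of its exon bases lie in exons of AC004080.3 on the same strand. HOXA10-AS overlaps its exons on the opposite strand.

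HOXA11 (chr7:27181510-27185223, minus strand), whose promoter window is shown above and which acts with HOXA10 in the reproductive tract, is a low gene with 1 to 44 counts per library. It had 0.948, 1.21 and 1.26 CPM with vehicle, 0.894, 1.93 and 1 with Senexin B, 0.371, 0.268 and 0.262 with R1881 and 0.601, 0.193 and 0.237 with both at 24 h. At 72 h it had 1.63, 0.676, 1.18 and 0.845 CPM with vehicle, 1.55, 1.52, 1.03 and 1.17 with SNX631, 0.311, 0.327, 0.442 and 0.346 with R1881 and 0.397, 0.0712, 0.206 and 0.292 with both. The libraries with R1881 were below those without it in each pair of groups. The effect was -1.96 ± 0.43 (FDR = 0.00025), -1.83 ± 0.43 (FDR = 0.000563), -1.55 ± 0.38 (FDR = 0.000606) and -2.44 ± 0.38 (FDR = 5.41e-07), where the second value was -1.45 (FDR = 0.011) without Senexin B replicate 2. HOXA11-AS and HOXC13-AS overlap exons of HOXA11 and HOXC13 on the opposite strand, and 0% of the values of either gene carried a fraction. The strand setting of the counting is not given, and the part of antisense reads in these values was not tested.

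HOXC5 (chr12:54032853-54035358) was called lower with androgen in 3 of 4 comparisons, and its neighbours HOXC4 and HOXC6 in none, a difference between genes that was not tested. It had 0.853, 0.855 and 0.689 CPM with vehicle and 0.278, 0.268 and 0.35 CPM with R1881 at 24 h, and 0.894, 0.672 and 0.771 CPM with Senexin B and 0.344, 0.58 and 0.632 CPM with both. At 72 h it had 1.46, 1.58, 1.27 and 1.46 CPM with vehicle, 0.518, 0.245, 0.53 and 0.519 with R1881, 1.29, 1.22, 1.58 and 1.51 with SNX631 and 0.397, 0.57, 0.481 and 0.292 with both. No group with R1881 overlapped its partner without R1881. The effect was -1.32 ± 0.42 (FDR = 0.00787), -0.59 ± 0.39 (FDR = 0.225), -1.68 ± 0.30 (FDR = 8.9e-06) and -1.67 ± 0.29 (FDR = 3.92e-06). The 24 h call was lost with DESeq2, with no filter on low counts and without any 1 of 9 of the 12 libraries. In GENCODE 29, 59.9% of its exon bases lie in exons of other entries on the same strand. These are AC012531.2 and another entry that is also named HOXC5. The count table held 1 row with this symbol, and 85.7% of its values carried a fraction. The part of shared reads in the HOXC5 values was not tested.

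HOXC4 (chr12:54016931-54056030), which in RefSeq shares its start window with HOXC5, had group means of 8.26 ± 0.39 CPM (SD, n = 3) with vehicle and 6.43 ± 0.774 CPM with R1881 at 24 h. At 72 h the means were 9.89 ± 1.04 and 7.36 ± 0.562 CPM (n = 4). The androgen effect was -0.38 ± 0.12 (FDR = 0.00662), -0.52 ± 0.12 (FDR = 0.000641), -0.44 ± 0.099 (FDR = 0.000229) and -0.49 ± 0.096 (FDR = 2.71e-05), past the FDR limit but short of the fold limit in all 4 comparisons. HOXC6, a gene of mammary and prostate development (chr12:53990624-54030823), had 21.4 ± 2.06 CPM with vehicle and 23.2 ± 1.46 CPM with R1881 at 24 h, and 24 ± 0.661 and 21.2 ± 0.623 CPM at 72 h. Its effect was 0.11 ± 0.076 (FDR = 0.214) at 24 h and -0.18 ± 0.06 (FDR = 0.00915) at 72 h, and -0.10 ± 0.081 (FDR = 0.286) and -0.43 ± 0.059 (FDR = 6.49e-08) with inhibitor. The difference between 72 h and 24 h was -0.29 ± 0.094 (FDR = 0.0318) on the log2 scale. Fractions were present in 82.1% of the HOXC4 values and 78.6% of the HOXC6 values.

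Among the lower HOXA genes, HOXA6 had 0.758, 1.28 and 1.03 CPM with vehicle and 0.371, 0.268 and 0.525 CPM with R1881 at 24 h, a difference of -1.41 ± 0.42 (FDR = 0.00496) on the log2 scale with no overlap. That call was lost with DESeq2 (FDR = 0.0501) and without any 1 of 4 of the 12 libraries (replicates 2 and 3 of the vehicle group, and replicates 1 and 2 of the R1881 group). At 72 h the HOXA6 effect was -0.56 ± 0.31 (FDR = 0.112). HOXA5 was not called in any comparison, and its androgen effect was -0.41 ± 0.30 (FDR = 0.27), -0.94 ± 0.34 (FDR = 0.0198), -0.039 ± 0.25 (FDR = 0.902) and -0.71 ± 0.26 (FDR = 0.0145).

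The second comparison asked what CDK8/19 inhibition does to the HOX genes. HOXB9 was the only HOX gene called with Senexin B, either without androgen (1 of 14, beside 3.79% of all genes called in either direction) or with it (1 of 14, beside 3.12%). HOXB9 (chr17:48621159-48626356, minus strand), a posterior gene that patterns the thoracic skeleton and the mammary gland, had 1.8, 1.28 and 1.21 CPM with vehicle and 4.02, 4.37 and 3.39 CPM with Senexin B. With R1881 it had 1.48, 0.982 and 1.22 CPM, and with R1881 and Senexin B 3.95, 2.9 and 3.16 CPM. All libraries with Senexin B were above all libraries without it. The effect was 1.54 ± 0.20 (FDR = 3.38e-07) without androgen, a fold change of 2.91, and 1.44 ± 0.25 (FDR = 2.84e-05) with androgen, a fold change of 2.71.

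HOXB9 had 1.63, 1.43, 1.94 and 1.69 CPM with vehicle and 2.59, 1.9, 2.29 and 2.34 CPM with SNX631 at 72 h, and 1.76, 1.55, 1.24 and 1.21 CPM with R1881 and 2.54, 1.64, 1.3 and 2.33 CPM with both. These ranges overlapped, and the SNX631 effect was 0.44 ± 0.21 (FDR = 0.0968) without androgen (95% interval 0.032 to 0.85) and 0.42 ± 0.23 (FDR = 0.135) with it (-0.022 to 0.86). The effect of SNX631 at 72 h minus that of Senexin B at 24 h was -1.10 ± 0.29 (FDR = 0.0168), which did not pass the FDR limit. Androgen itself gave -0.13 ± 0.27 (FDR = 0.732) at 24 h and -0.22 ± 0.24 (FDR = 0.424) at 72 h.

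**Figure D4:**
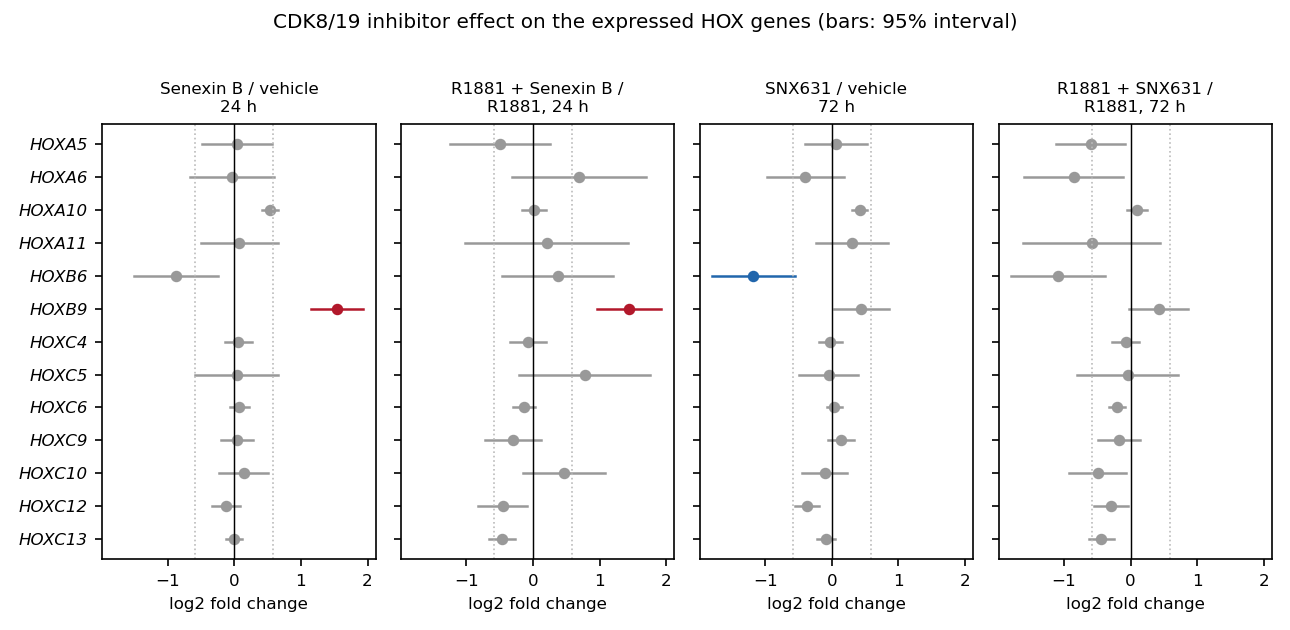
Log2 fold change with its 95% interval for 13 tested HOX genes with Senexin B at 24 h and SNX631 at 72 h, without and with R1881, in red where called higher, blue where called lower and grey where not called. HOXB9 is red in both Senexin B panels and HOXB6 is blue with SNX631 alone.

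With SNX631, 1 HOX gene of 14 was called without androgen (HOXB6, lower, beside 4.77% of all genes in either direction) and 1 of 14 with androgen (beside 4.12%). HOXB6 (chr17:48595751-48604992, minus strand) had 1.11, 1.05, 1.01 and 1.07 CPM with vehicle and 0.345, 0.608, 0.395 and 0.502 CPM with SNX631 at 72 h, with no overlap, and 0.518, 0.982, 0.795 and 0.778 CPM with R1881 and 0.555, 0.285, 0.275 and 0.365 CPM with both. At 24 h it had 1.23, 1.57 and 1.21 CPM with vehicle, 0.521, 0.841 and 0.771 with Senexin B, 0.371, 0.982 and 0.437 with R1881 and 0.945, 0.483 and 0.869 with both, so that the vehicle libraries were above all others. The effect was -1.18 ± 0.32 (FDR = 0.00308) for SNX631, -1.09 ± 0.36 (FDR = 0.0138) for SNX631 with androgen, -0.88 ± 0.32 (FDR = 0.0312) for Senexin B, 0.37 ± 0.43 (FDR = 0.545) for Senexin B with androgen and -1.11 ± 0.35 (FDR = 0.0068) for R1881 at 24 h. With inhibitor present, or at 72 h, androgen gave 0.14 ± 0.40 (FDR = 0.784), -0.45 ± 0.29 (FDR = 0.201) and -0.36 ± 0.40 (FDR = 0.466). With DESeq2 the SNX631 call was lost (FDR = 0.0357), as was the androgen call at 24 h (FDR = 0.0689). Leaving out SNX631 replicate 1 or 3 also ended the first call (FDR = 0.0131 and 0.0125), and the second was lost without each vehicle library and without R1881 replicate 1 or 3.

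**Figure D5:**
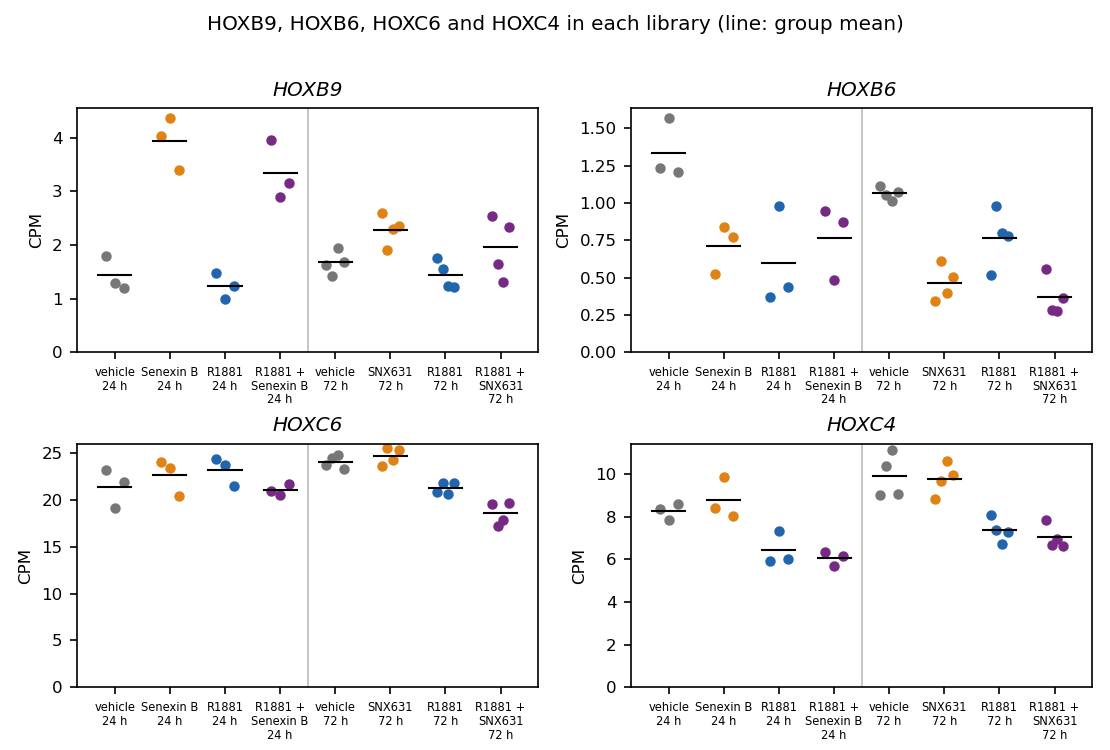
CPM of HOXB9, HOXB6, HOXC6 and HOXC4 in each of the 28 libraries (points), by group, with the group mean as a line and 24 h groups left of 72 h groups. HOXB9 is above 2.8 CPM in the 6 libraries with Senexin B and in no other, and HOXC6 stays between 17.2 and 25.6 CPM throughout.

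HOXA10 was the HOX gene with the smallest FDR for each inhibitor without androgen. Its rise was 0.53 ± 0.062 (FDR = 4.56e-08) with Senexin B and 0.42 ± 0.058 (FDR = 3.12e-07) with SNX631, fold changes of 1.45 and 1.34 that stayed under the fold limit. With androgen present the effect was 0.019 ± 0.093 (FDR = 0.905) (95% interval -0.16 to 0.20) and 0.094 ± 0.077 (FDR = 0.343) (-0.056 to 0.24). The interaction of androgen and inhibitor was -0.52 ± 0.11 (FDR = 0.00406) at 24 h and -0.32 ± 0.097 (FDR = 0.021) at 72 h on the log2 scale, the first past the FDR limit and both short of the fold limit.

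HOXC13 passed the FDR limit for the inhibitors only where androgen was present, and its interaction did not pass that limit in either experiment. Its inhibitor effect was -0.0073 ± 0.059 (FDR = 0.995) and -0.094 ± 0.069 (FDR = 0.308) without androgen, and -0.47 ± 0.10 (FDR = 0.000513) and -0.44 ± 0.096 (FDR = 0.00025) with androgen, and the interaction was -0.46 ± 0.12 (FDR = 0.0176) and -0.35 ± 0.12 (FDR = 0.0467). HOXC12 had -0.37 ± 0.092 (FDR = 0.00137) with SNX631 alone and -0.12 ± 0.11 (FDR = 0.401) with Senexin B alone. HOXC9 gave 0.039 ± 0.12 (FDR = 0.84) and 0.14 ± 0.098 (FDR = 0.297) with the inhibitors alone, with 95% intervals of -0.20 to 0.28 and -0.056 to 0.33. The sums of the clusters with inhibitor alone were 43.1 ± 3.1 CPM (SD, n = 3) for HOXA with Senexin B and 38.1 ± 0.75 CPM (n = 4) with SNX631, and 84.1 ± 2.23 and 80.5 ± 1.9 CPM for HOXC. With R1881 and inhibitor, HOXC had 44.5 ± 1.35 CPM at 24 h and 43.8 ± 1.8 CPM at 72 h, below every library with R1881 alone. HOXB had 5.17 ± 0.755 CPM with Senexin B and 4.33 ± 0.836 CPM with R1881 and Senexin B, and 3.19 ± 0.287 and 2.47 ± 0.69 CPM with SNX631. Most of these HOXB sums was HOXB9, with means of 3.93, 3.34, 2.28 and 1.95 CPM in the same order.

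In edgeR, 0 of 14 HOX genes were called for the interaction at 24 h (beside 0.577% of all genes) and 0 at 72 h (beside 1.19%), with 3 at an unadjusted p under 0.05 in each, and DESeq2 also called 0 in both. The androgen effect differed between 72 h and 24 h for 0 of 15 HOX genes tested (beside 1.88%), with 3 at an unadjusted p under 0.05. The inhibitor effect differed for 0 of 15 (beside 0.474%), with 1 at an unadjusted p under 0.05. HOXC8 was tested only in this fit of all 28 libraries. With FDR under 0.05 and no fold limit, 2 of 14 were called for the interaction at 24 h (beside 4.51% of all genes) and 2 at 72 h (beside 12.7%), and 1 of 15 for each difference between experiments (beside 13.2% for androgen and 4.61% for the inhibitors). For the inhibitors, that limit called 3 of 14 with Senexin B (beside 35.8%), 2 with Senexin B and androgen (beside 33%), 4 with SNX631 (beside 36.5%) and 4 with SNX631 and androgen (beside 42.8%).

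The genes under 1 CPM were described by their counts, with no test within an experiment. HOXC8 had the highest of these levels, 7, 5 and 12 counts with vehicle, 12, 5 and 11 with Senexin B, 1, 3 and 2 with R1881 and 2, 6 and 2 with both at 24 h. At 72 h it had 5, 9, 10 and 3 counts with vehicle, 7, 8, 6 and 18 with SNX631, 2, 2, 1 and 3 with R1881 and 1, 3, 1 and 9 with both. The R1881 libraries had fewer counts than the vehicle libraries at 24 h, and at most as many as the lowest vehicle library at 72 h. Relative to library size the 72 h groups overlapped, with 0.259 CPM in R1881 replicate 4 and 0.23 CPM in vehicle replicate 4. HOXA7 had 7, 5, 7 and 6 counts with vehicle and 1, 2, 3 and 1 with R1881 at 72 h, which did not overlap. HOXA9, which shares exons with AC004080.3, had 2, 2, 0 and 2 counts with vehicle and 4, 8, 4 and 6 with SNX631 at 72 h, and at most 2 counts in each library with R1881. HOXA13, HOXB7 and HOXA3 had at most 7 counts in a library. HOXA2, HOXA4, HOXB3, HOXB5, HOXB8, HOXC11, HOXD1, HOXD8, HOXD10 and HOXD13 had at most 3.

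Other genes of the clusters and of HOX function were read from lists. Of 18 non-coding RNAs of the clusters, 4 were tested. Of these, 3, 2, 2 and 3 were lower in the 4 androgen comparisons, beside 9.19%, 8.9%, 10.1% and 12% of all genes. HOXA11-AS and HOXC13-AS were lower in all 4 comparisons. HOXA11-AS, the antisense neighbour of HOXA11, had 4.36 ± 0.26 CPM with vehicle (SD, n = 3) and 1.25 ± 0.445 with R1881 at 24 h, a change of -1.78 ± 0.22 (FDR = 2.41e-08), and -1.65 ± 0.20 (FDR = 2.25e-09) at 72 h. Senexin B raised it by 0.61 ± 0.14 (FDR = 0.00103) without androgen, and SNX631 gave 0.48 ± 0.14 (FDR = 0.00536), under the fold limit. HOXC13-AS had -1.19 ± 0.16 (FDR = 1.86e-07) at 24 h and -1.24 ± 0.19 (FDR = 6.47e-07) at 72 h. HAGLR, within the HOXD cluster, had 1.21 ± 0.444 CPM with vehicle at 72 h (n = 4), above any HOXD coding gene. R1881 gave -1.83 ± 0.45 (FDR = 0.000815) at 24 h and -0.82 ± 0.32 (FDR = 0.027) at 72 h. In cells with SNX631, R1881 gave -1.5 (FDR = 1.84e-05). SNX631 itself was not called for HAGLR.

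Of 11 TALE partners, 10 were tested, and 2, 4, 2 and 4 were lower in the 4 androgen comparisons, beside 9.19%, 8.9%, 10.1% and 12% of all genes. PKNOX2, a TALE factor related to the MEIS family, had -1.12 ± 0.13 (FDR = 3.27e-09), -1.31 ± 0.15 (FDR = 7.85e-09), -1.04 ± 0.086 (FDR = 3.21e-13) and -0.85 ± 0.10 (FDR = 3.72e-09) with androgen, and -0.85 ± 0.082 (FDR = 9.02e-11) and -0.66 ± 0.11 (FDR = 4.51e-06) with SNX631. TGIF2 was called lower with androgen only where an inhibitor was present, with effects of -0.71 ± 0.095 (FDR = 1.21e-07) and -0.76 ± 0.064 (FDR = 4.72e-13). Without inhibitor it was also lower, with no overlap, but was not called. Its means were 22.1 CPM with vehicle and 17.9 CPM with R1881 at 24 h, and 29.6 and 20.2 CPM at 72 h. For the interaction, 0 of 10 TALE factors were called in either experiment.

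Of 14 genes next to the clusters, 11 were tested, and 3, 3, 3 and 2 were lower with androgen, beside the same 9.19%, 8.9%, 10.1% and 12% of all genes. With so few genes in either list, nothing is read from these counts. The genes were HIBADH beside HOXA (-0.67 ± 0.042 (FDR = 4.77e-15) at 24 h and -0.74 ± 0.033 (FDR = 2.03e-21) at 72 h), PRAC1 beside HOXB (-0.70 ± 0.048 (FDR = 3.61e-14) and -0.63 ± 0.047 (FDR = 1.71e-14)) and CALCOCO1 beside HOXC (-0.65 ± 0.058 (FDR = 2.88e-11) and -0.61 ± 0.046 (FDR = 1.98e-14)). Of 16 listed regulators of HOX expression, most of them MLL complex members and partners, 14 were tested. With androgen, 1, 0, 0 and 0 of these were lower, beside the same shares of all genes, and nothing is read from these counts either. MLLT3 was lower with R1881 at 24 h (-0.60 ± 0.086 (FDR = 3.47e-07)). DOT1L was higher with androgen and Senexin B (0.63 ± 0.054 (FDR = 6.27e-12)).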

How the data were processed

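RNA-Seq libraries of total RNA (NEBNext Ultra II Directional kit, per the study) were made from LNCaP cells. The authors deposited estimated counts per gene, and their processing notes name FastQC, cutadapt 2.8, STAR 2.7.2b and featureCounts of Subread 2.0.3, with GRCh38.p13 and GRCm39. The strand setting of the counting and the annotation release are not given in the sources used here. Fractions were present in 16.87% of values above 0, and values were rounded to whole counts. The source of the fractions was not tested. The 2 non-human rows, with 0 counts, were left out. Total counts per library were 9846481 to 33809270. No replicate pair agreed within sampling noise, so none was merged.

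Each experiment was fitted alone with edgeR 4.0.16 (TMM, filterByExpr with a minimum count of 10 and total of 15, quasi-likelihood F test), and a fit of all 28 libraries gave differences between experiments. A call needed FDR under 0.01, adjusted over all genes tested, and a fold change over 1.5. SE is the log2 fold change over the square root of F, and 95% intervals are 1.96 SE to each side. Genes called in at least 2 comparisons are given by library, and genes of the other lists by count with those called named. Fitted steps were tested on simulated data. Gene positions and exon lengths are from GENCODE 29 (GRCh38), matched by gene identifier. Alternatives were DESeq2 1.42.0, other scalings, filters, thresholds, a replicate block and leaving out each library.

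The members and lists were chosen with earlier results of these data known. Replicate numbers were not used to pair the samples. Correlations of same-numbered deviations were -0.0623 to 0.154 at 24 h and -0.053 to 0.0847 at 72 h. Those of differently numbered deviations were -0.146 to 0.0703 and -0.107 to 0.153. At 24 h the medians were 0.0268 and -0.0162, so weak pairing is not excluded. Results for some genes are not reported here.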

Additional observations from a re-analysis of the deposited data

Results flagged for a closer look

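Of 56 groups of 4 libraries examined for the tested HOX genes, 2 held a library far from the others by Dixon's test, which flags about 1 group in 20 by chance. HOXC5 had 0.2455 CPM in replicate 2 of the R1881 group at 72 h, while the other 3 libraries had 0.5181 to 0.5301 CPM. HOXC12 had 2.697 CPM in replicate 1 of the group with R1881 and SNX631, while the others had 3.984 to 4.23 CPM.

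The androgen effect on HOXA10 differed with and without Senexin B at 24 h, by an interaction of -0.52 on the log2 scale (edgeR quasi-likelihood test, FDR = 0.00406). Its size stayed under the fold limit of 1.5.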

How the results depend on the processing

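Of the single-gene values recomputed, 1173 kept their direction and side of the limits, 38 dropped below them, 23 passed them and 3 changed sign. Of the counts, 277 stayed within 1.5 times and 19 did not. With FDR under 0.05 and no fold limit, the HOX calls were 3 for Senexin B, 2 for Senexin B with androgen, 2 for the interaction at 24 h, 10 for androgen at 72 h, 4 for SNX631, 4 for SNX631 with androgen, 2 for the interaction at 72 h, and 1 each for the 2 differences between experiments. DESeq2 called 0 for SNX631, and testing against a fold change of 1.5 called 0 for SNX631 without and 0 with androgen. At 2 CPM 8 genes passed. Leaving out 1 library gave 1 to 2 calls for Senexin B with androgen, 0 to 1 for the 24 h interaction, 0 to 1 for SNX631 and 0 to 1 for SNX631 with androgen. The second Senexin B call (HOXC12) appeared without replicate 3 of R1881 with Senexin B, and the interaction call (HOXA10) without that library or R1881 replicate 1. The Senexin B effect on HOXA10 with androgen turned to -0.017 with library totals and ranged from -0.069 to 0.068 when 1 library was left out, with -0.047 without R1881 replicate 1 and -0.069 without replicate 3 of R1881 with Senexin B. The cause was not tested. Library totals moved the median of all genes to -0.116 and -0.122 at 72 h, with 1299 higher and 2121 lower for androgen alone against 1559 and 1626, and 1311 and 2435 with SNX631 against 1619 and 1924. HOXC10 at 72 h (-0.64), and HOXC4 with Senexin B (-0.60) and with SNX631 (-0.60), were then called lower with androgen. A replicate block left 8 androgen calls at 24 h (HOXC5 lost, FDR = 0.0125) and the other counts of calls as they were.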
